A study of Homo sapiens with 18 samples.

Results

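The MYC family and the partners of MAX are 10 genes of the deposited count table: MYC, MYCN, MYCL, MAX, MXD1, MXD3, MXD4, MXI1, MNT and MGA. They were matched by their Ensembl gene IDs, and all 10 were found among 60612 rows, of which 35346 held at least 1 count in the libraries used here. The members were chosen with earlier results of these data known. MYC, MYCN and MYCL are basic helix-loop-helix leucine zipper proteins that bind DNA as heterodimers with MAX and activate genes of growth, ribosome production and metabolism. MXD1, MXI1, MXD3 and MXD4 compete for MAX and recruit the SIN3 corepressor, and MNT does the same in most growing cells. MGA joins MAX to a variant Polycomb complex named PRC1.6. In neuroblastoma, amplification of MYCN marks aggressive tumours, and SH-SY5Y is known as a line without that amplification. In liver cancer, MYC is the family member most often described.

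Polyadenylated RNA was sequenced from HepG2, a hepatocellular carcinoma line, and SH-SY5Y, a neuroblastoma line, in 12 libraries. Both lines have 3 control libraries, from cells transfected with a plasmid encoding the fluorescent protein mNeonGreen alone, and 3 EXACT1 libraries, whose plasmid encodes the miRNA EXACT1 along with mNeonGreen. HepG2 cells took up 100 ng of plasmid per well by lipofection and SH-SY5Y cells were nucleofected, so line and transfection method cannot be told apart. Each tumour type is represented by 1 line, and the labels do not say that the 3 replicates of a group were separate cultures, so the p-values measure the spread between these libraries, which may be technical. The comparison of lines asks which paralog each line uses. That of plasmids asks whether the network differs between cells given the EXACT1 plasmid and cells given the control plasmid. EXACT1 RNA itself was not analysed here. HEK293A, the third line of the series, was not analysed here: 2555 of the 6574 genes with more than 500 counts in all 12 other libraries (38.9%) stood at 0 in all 6 HEK293A columns, GAPDH, EEF1A1 and MYC among them.

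The 12 libraries held 66056962 to 77100150 counts each. The lines carried the markers of their origin: 8 of 8 hepatocyte markers exceeded 1 CPM (the count scaled to the library total) in HepG2, with a median of 8572 CPM, against 6 of 8 and 20.1 CPM in SH-SY5Y. Of 8 sympathetic neuroblast markers, 7 exceeded 1 CPM in SH-SY5Y (median 333 CPM) and 2 in HepG2 (0.231 CPM). Of 6 fibroblast markers, 6 exceeded 1 CPM in SH-SY5Y and 1 in HepG2, and of 5 blood cell markers 1 did so in each line. The blood cell markers summed to 1457 to 3474 CPM in the HepG2 libraries and to 6.69 to 9.8 CPM in the SH-SY5Y libraries. Replicate 1 of HepG2 with EXACT1 and replicate 2 of the SH-SY5Y controls stood apart from their groups and are called the outlying libraries. Ribosomal protein genes took 9.83% of the counts of the first, against 4.64% to 4.79% in the other 5 HepG2 libraries, and 13.0% of the second, against 5.47% to 5.92%. Results of the members that rest on either library are given with and without it, and those of other named genes where leaving it out changed the call or moved the fold by over 1.5 times.

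Promoter sequence was read from RefSeq (GRCh38.p14), in windows from 250 bases before to 50 bases after each start, for 9 of the 10 genes (all but MYC) and 14 starts in all. MYC:MAX and MXD:MAX dimers recognise the E-box CACGTG, and 2 of the 14 windows held it on either strand, 1 each of MXD4 and MNT, against 7.26% of all 35116 windows. MYCN is shown because it separates the lines most widely, and MXD4 and MNT because they hold the E-box. The word TTTGGCGC, the form recognised by E2F proteins, was searched after the MYCN sequence had been seen. It stood in the MYCN window, 176 bases before the start, in 1 of 3 MGA windows and in 0.652% of all windows. It shares no position with the E-box in these windows. The stretches below leave out annotated exons and are written 5' to 3' on the gene's strand, with the E-box or the E2F word in capitals. A match describes the letters only.
MYCN, chr2:15940352-15940549, plus strand: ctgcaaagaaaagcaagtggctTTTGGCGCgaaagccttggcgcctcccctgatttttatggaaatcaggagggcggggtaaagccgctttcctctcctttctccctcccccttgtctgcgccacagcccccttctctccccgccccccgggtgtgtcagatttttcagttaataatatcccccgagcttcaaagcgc
MXD4, chr4:2262295-2262359, minus strand: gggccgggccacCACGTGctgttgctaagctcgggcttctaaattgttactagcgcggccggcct
MNT, chr17:2401119-2401310, minus strand: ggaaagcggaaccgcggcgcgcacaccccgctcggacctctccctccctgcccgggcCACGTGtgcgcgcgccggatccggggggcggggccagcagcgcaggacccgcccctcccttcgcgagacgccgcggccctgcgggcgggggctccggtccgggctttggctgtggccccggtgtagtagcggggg

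The MYC paralogs were compared first. HepG2 used MYC almost alone, whereas SH-SY5Y carried MYC at a similar level per length and MYCN in addition. Levels of different genes are given as CPM per kilobase of annotated exon (GENCODE 29, GRCh38), relative to library totals. Of the summed level of the 3 paralogs, MYC made up 97.7% ± 0.742 (SD, n = 6 libraries) in HepG2 and 74.8% ± 1.67 in SH-SY5Y. MYCN made up 0.0108% ± 0.0265 in HepG2 and 21.4% ± 1.96 in SH-SY5Y, and MYCL 2.26% ± 0.751 and 3.77% ± 0.633. The ranges of the share of MYC did not overlap between lines, at 96.6% to 98.6% in HepG2 and 73.2% to 76.9% in SH-SY5Y. These shares are descriptions without a test.

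MYC (ENSG00000136997, chr8:127735434-127741434, plus strand) encodes the paralog found in most dividing cells. With the control plasmid it stood at 95.6, 84.9 and 94.0 CPM in HepG2 and at 81.5, 86.4 and 94.7 CPM in SH-SY5Y. With the EXACT1 plasmid it stood at 46.6, 89.6 and 103 CPM in HepG2 and at 92.7, 98.3 and 99.9 CPM in SH-SY5Y. The lines overlapped under both plasmids, and the single low value was that of HepG2 EXACT1 replicate 1. In bulk RNA, fewer cells with a transcript and less of it per cell cannot be told apart.

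MYCN (ENSG00000134323, chr2:15940564-15947007, plus strand) is the paralog of the developing nervous system. In HepG2 it had 4, 0 and 0 counts with the control plasmid and 0 in all 3 EXACT1 libraries. In SH-SY5Y it had 1398, 1289 and 1807 counts with the control plasmid, or 19.8, 19.5 and 24.9 CPM, and 1400, 1963 and 1939 counts with EXACT1, or 19.4, 27.1 and 27.7 CPM. Every SH-SY5Y library thus lay far above every HepG2 library. With control plasmid the SH-SY5Y mean was 1189-fold the pooled HepG2 level, with an exact 95% interval from 464 to 4363 that covers the counting error of those 4 counts only. With EXACT1, where HepG2 had no count, it was at least 584-fold higher, against a floor of 3 counts per library. The call that MYCN was lower in HepG2 held in both fits (edgeR quasi-likelihood test, adjusted p = 0.000389 with control and 0.000228 with EXACT1).

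MYCL (ENSG00000116990, chr1:39895426-39902256, minus strand), first found in lung cancer, was the lowest paralog in SH-SY5Y. It stood at 2.87, 3.39 and 2.98 CPM in HepG2 with control and at 2.78, 4.40 and 2.48 CPM with EXACT1. In SH-SY5Y it stood at 8.05, 5.89 and 7.83 CPM with control and at 9.57, 8.08 and 7.48 CPM with EXACT1. The lines did not overlap on this scale. After TMM scaling, used for the tests below, the fitted difference did not pass under either plasmid (log2 fold change -0.58, adjusted p = 0.116, and -0.46, adjusted p = 0.266). Scaled to library totals instead, MYCL was called lower in HepG2 under both (-1.24, adjusted p = 0.011, and -1.38, adjusted p = 0.010).

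**Figure D1:**
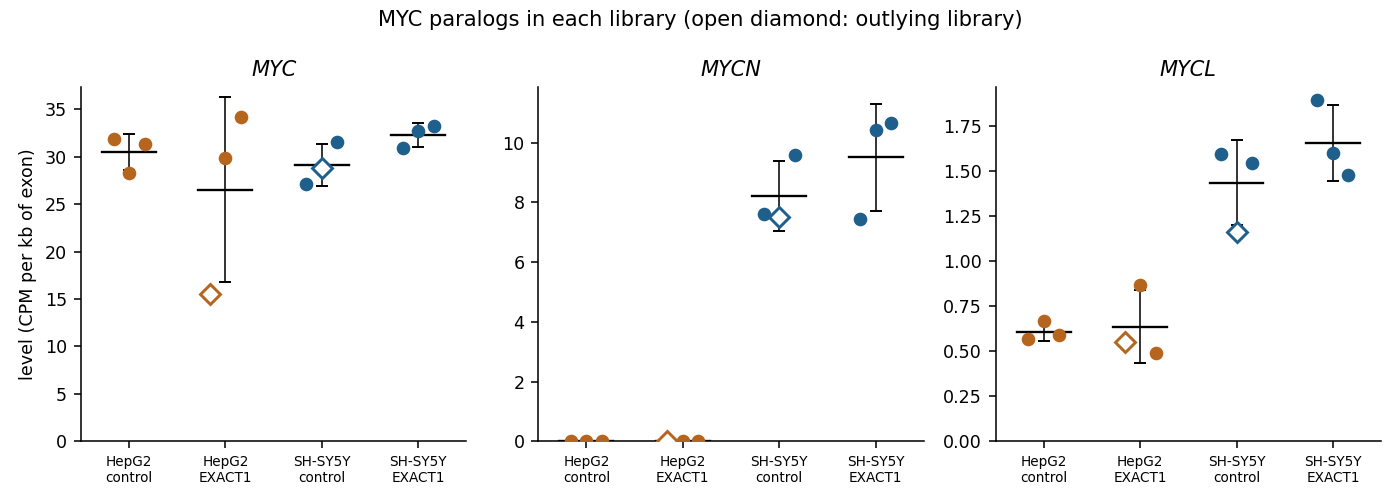
Levels of MYC, MYCN and MYCL, in CPM per kilobase of exon, in each of the 12 libraries by line and plasmid. Points are libraries, lines the mean and bars the SD of 3, and the open diamonds are the outlying libraries; MYC medians were 30.6 in HepG2 and 31.2 in SH-SY5Y, and MYCN medians 0 and 8.58.

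The network was then ordered by level per length. In HepG2 the medians over 6 libraries ran from MYC at 30.6 through MXI1 at 13.7, MXD4 at 6.64, MAX at 3.55, MXD1 at 2.58, MNT at 1.87, MGA at 1.70, MXD3 at 1.4996 and MYCL at 0.578 to MYCN at 0. In SH-SY5Y they ran from MYC at 31.2 through MXI1 at 17.1, MAX at 14.7, MXD4 at 11.6, MYCN at 8.58, MGA at 5.61, MNT at 4.06, MXD3 at 3.81 and MXD1 at 2.52 to MYCL at 1.57. MYC had the highest median in both lines, and its range did not overlap that of MXI1. In the outlying libraries MXD4 stood slightly above MYC, at 16.3 against 15.5 in HepG2 EXACT1 replicate 1 and at 30.1 against 28.8 in SH-SY5Y control replicate 2. MAX, the shared partner, stood below MXD4 in HepG2 and above it in SH-SY5Y, where their ranges overlapped. In HepG2 the neighbours MAX, MXD1, MNT, MGA and MXD3 overlapped pairwise in that order, with or without the outlying library. In SH-SY5Y the pairs MAX and MXD4, MXD4 and MYCN, and MNT and MXD3 did so.

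The summed level of the MYC paralogs over that of MAX differed between lines. It was 7.61 to 10.6 in 5 HepG2 libraries, 5.08 in HepG2 EXACT1 replicate 1, and 2.41 to 3.15 in the 6 SH-SY5Y libraries, so the lines did not overlap. The summed level of MXD1, MXD3, MXD4, MXI1, MNT and MGA over that of the MYC paralogs was 0.764 to 0.975 in 5 HepG2 libraries and 1.03 to 1.23 in 5 SH-SY5Y libraries. In the outlying libraries it was 2.01 and 1.67. Both ratios are sums of RNA levels, without a test.

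The lines were compared gene by gene with the control plasmid, and MAX, MYCN, MXD1 and MYC passed. Log2 fold changes are HepG2 over SH-SY5Y after scaling by TMM, with a standard error (SE), and p-values are adjusted over all genes tested by the Benjamini-Hochberg method. Of 19775 genes 10526 were called at an adjusted p under 0.05, or 53.2%, with 4596 higher in HepG2 (23.2%) and 5930 lower (30.0%). Of the 10 members 4 were called, 2 higher and 2 lower, a share below that of all genes. With the EXACT1 plasmid 10540 of 20105 genes were called, or 52.4%, 24.3% higher and 28.1% lower, and 2 members passed, MYCN and MAX, both lower in HepG2.

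The sign of a small line difference depends on the scaling. Relative to library totals instead of TMM, the median of all genes moved from -0.27 to -0.91 with the control plasmid and from -0.18 to -1.08 with EXACT1, and calls higher in HepG2 went from 43.7% to 27.6% and from 46.4% to 25.9% of all calls. A change of scaling shifts nearly all genes by a similar amount, so differences from that median could hardly change and lend no separate support. MYC lay 0.96 above the median by TMM and 0.98 above it by library totals with control, and 0.77 and 0.79 above it with EXACT1. MAX lay 1.13 and 1.10 below it with control, a log2 difference of -1.13 and -1.10, and -0.99 and -1.01 with EXACT1.

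MAX (ENSG00000125952, chr14:65006174-65102695, minus strand), the obligate partner of the family, was lower in HepG2. It stood at 14.6, 16.9 and 17.0 CPM in HepG2 with control and at 14.0, 12.9 and 17.8 CPM with EXACT1. In SH-SY5Y it stood at 66.7, 67.5 and 61.4 CPM with control and at 58.7, 67.4 and 63.9 CPM with EXACT1. No HepG2 library came near an SH-SY5Y library. MAX differed by -1.39 on the log2 scale (SE 0.24, adjusted p = 0.0032) with control and by -1.17 (SE 0.24, adjusted p = 0.0068) with EXACT1. Without the outlying library the values were -1.19 (adjusted p = 6.34e-05) and -1.25 (adjusted p = 0.000164).

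MYC was higher in HepG2 with the control plasmid on the TMM scale, by 0.69 (SE 0.22, adjusted p = 0.034). The call was lost by library totals, at 0.06 (adjusted p = 0.805), without a filter on low counts, at 0.69 (adjusted p = 0.067), and without any 1 control library other than SH-SY5Y replicate 2, at 0.57 to 0.75. With EXACT1 the difference was 0.59 (adjusted p = 0.104), and -0.29 by library totals (adjusted p = 0.480). Without the outlying library MYC was called in both, at 0.86 (SE 0.10, adjusted p = 0.000312) and 0.79 (SE 0.07, adjusted p = 5.12e-05).

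MXD1 (ENSG00000059728, chr2:69897688-69942945, plus strand), a repressor that rises as cells differentiate, stood at 15.8, 17.0 and 17.8 CPM in HepG2 with control. In SH-SY5Y it stood at 12.9, 5.69 and 16.2 CPM, with the lowest value in the outlying library. It was called higher in HepG2, by 1.24 (SE 0.33, adjusted p = 0.019), and not with EXACT1 (0.40, adjusted p = 0.457), where HepG2 held 4.81, 18.5 and 14.3 CPM and SH-SY5Y 17.3, 15.8 and 18.5 CPM. The control call was lost by library totals (0.54, adjusted p = 0.285) and without HepG2 replicate 1, 2 or 3 or SH-SY5Y replicate 1 (1.23 to 1.29). Without the outlying library it was called in both, at 1.01 and 0.74. Its exons overlap those of SNRNP27 on the same strand.

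MXI1 (ENSG00000119950, chr10:110207605-110287365, plus strand), also known as MXD2, was the most abundant of the repressive partners per length in both lines by its median. With control it stood at 67.8, 64.4 and 61.6 CPM in HepG2 and at 77.7, 46.6 and 87.6 CPM in SH-SY5Y. With EXACT1 it stood at 21.4, 64.7 and 57.1 CPM in HepG2 and at 75.4, 87.3 and 80.2 CPM in SH-SY5Y. The lowest value of each line was in its outlying library. On the TMM scale the line difference did not pass (0.55, adjusted p = 0.080, and 0.10, adjusted p = 0.831). It did without that library, higher in HepG2 at 0.45 (adjusted p = 0.0052) and 0.40 (adjusted p = 0.011). By library totals, with all libraries, the sign turned and neither passed (-0.13, adjusted p = 0.721, and -0.76, adjusted p = 0.164). In CPM the other 5 HepG2 libraries (57.1 to 67.8) lay below the other 5 SH-SY5Y libraries (75.4 to 87.6), so the direction depends on the scaling.

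MXD3 (ENSG00000213347, chr5:177301461-177312757, minus strand), a repressor linked to S phase, had opposite signs under the 2 plasmids, and neither passed on the TMM scale. With control it stood at 7.43, 8.45 and 6.69 CPM in HepG2 and at 19.6, 83.8 and 16.6 CPM in SH-SY5Y (log2 fold change -1.93, adjusted p = 0.073). With EXACT1 it stood at 42.5, 8.03 and 6.55 CPM in HepG2 and at 15.5, 19.7 and 21.5 CPM in SH-SY5Y (1.08, adjusted p = 0.314). The 2 extreme values were those of the outlying libraries. Without them the differences were -0.46 (adjusted p = 0.051, not called) and -0.57 (adjusted p = 0.035, lower in HepG2). By library totals, with all libraries, MXD3 was called lower in HepG2 with control (-2.41, adjusted p = 0.019) and not with EXACT1 (0.0086, adjusted p = 0.992). Its exons overlap RAB24 on the same strand and PRELID1 on the opposite strand, and the strand setting of the counting is not given in the sources used here.

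MXD4 (ENSG00000123933, chr4:2247432-2262294, minus strand), a repressor described in differentiated and quiescent cells, did not pass under either plasmid on the TMM scale. With control it stood at 49.8, 44.97 and 43.6 CPM in HepG2 and at 96.7, 212 and 68.6 CPM in SH-SY5Y. With EXACT1 it stood at 115, 43.4 and 48.7 CPM in HepG2 and at 75.9, 78.8 and 85.3 CPM in SH-SY5Y. The log2 fold changes were -0.91 (adjusted p = 0.188) and 0.80 (adjusted p = 0.224). Without the outlying libraries they were -0.04, with a 95% interval from -0.42 to 0.34, and 0.01, from -0.18 to 0.19. By library totals, with all libraries, MXD4 was called lower in HepG2 with control (-1.45, adjusted p = 0.027) and not with EXACT1 (-0.21, adjusted p = 0.68).

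MNT (ENSG00000070444, chr17:2384060-2401118, minus strand), the broadly expressed antagonist of MYC, stood at 20.1, 15.5 and 16.9 CPM in HepG2 and at 34.2, 35.2 and 33.4 CPM in SH-SY5Y with control. With EXACT1 it stood at 17.0, 14.9 and 15.7 CPM and at 36.3, 35.7 and 37.5 CPM. The outlying libraries lay within the others of their line. On the TMM scale the difference did not pass (-0.34, adjusted p = 0.291, and -0.26, adjusted p = 0.406). It was called with EXACT1 when HepG2 replicate 1 was left out (-0.45, adjusted p = 0.0026), and by library totals under both plasmids (-0.97 and -1.20).

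MGA (ENSG00000174197, chr15:41621224-41773081, plus strand), the longest of the members, stood at 28.6, 31.4 and 32.8 CPM in HepG2 and at 77.7, 20.8 and 102 CPM in SH-SY5Y with control. With EXACT1 it stood at 6.12, 27.9 and 32.4 CPM in HepG2 and at 112, 96.8 and 101 CPM in SH-SY5Y. The lowest value of each line was again in the outlying library. The difference did not pass (-0.39, adjusted p = 0.513, and -1.39, adjusted p = 0.062). Without that library MGA was lower in HepG2 in both, by -0.73 (SE 0.13, adjusted p = 0.0020) and -0.98 (SE 0.09, adjusted p = 5.94e-05). By library totals, with all libraries, MGA was called lower with EXACT1 (-2.22, adjusted p = 0.018) and not with control (-1.11, adjusted p = 0.121).

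**Figure D2:**
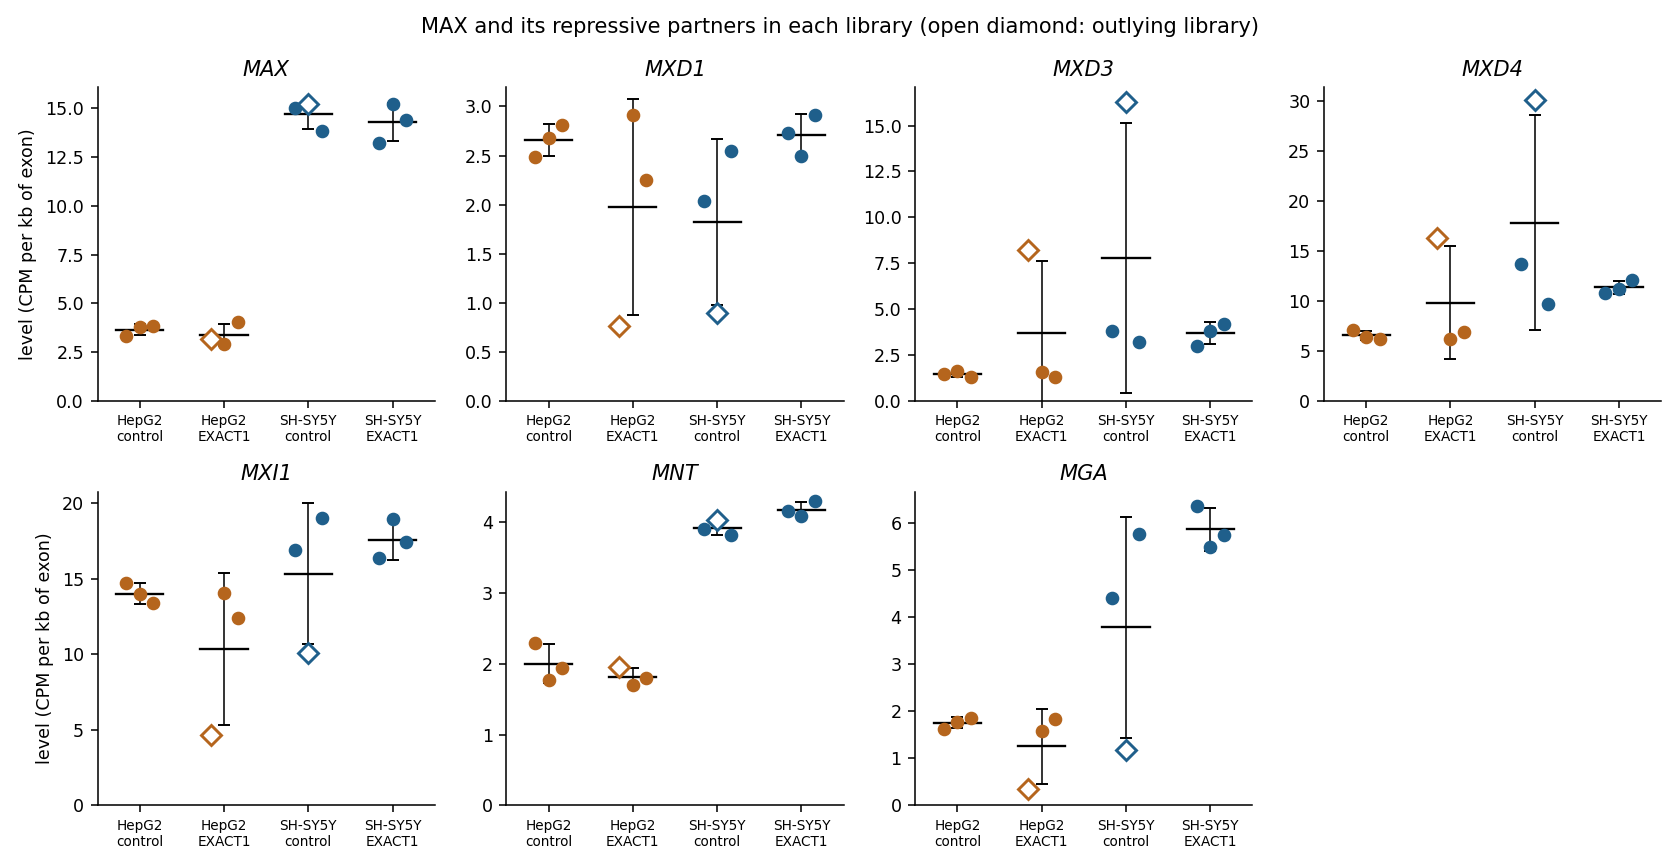
Levels of MAX, MXD1, MXD3, MXD4, MXI1, MNT and MGA, in CPM per kilobase of exon, in each of the 12 libraries by line and plasmid. Points are libraries, lines the mean and bars the SD of 3, cut at 0, and the open diamonds, the outlying libraries, hold the highest MXD3 and MXD4 and the lowest MXD1, MXI1 and MGA of their line.

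Without SH-SY5Y control replicate 2, 14714 of 20991 genes were called with the control plasmid, or 70.1%, with 32.4% higher and 37.7% lower in HepG2. There 6 members were called on the TMM scale, MYC, MXD1 and MXI1 higher and MYCN, MAX and MGA lower. Without HepG2 EXACT1 replicate 1, 15515 of 21389 were called with EXACT1, or 72.5%, with 32.4% higher and 40.2% lower. There 8 members were called, the same 6 genes with MNT and MXD3 lower. MYCL and MXD4 passed in neither.

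**Figure D3:**
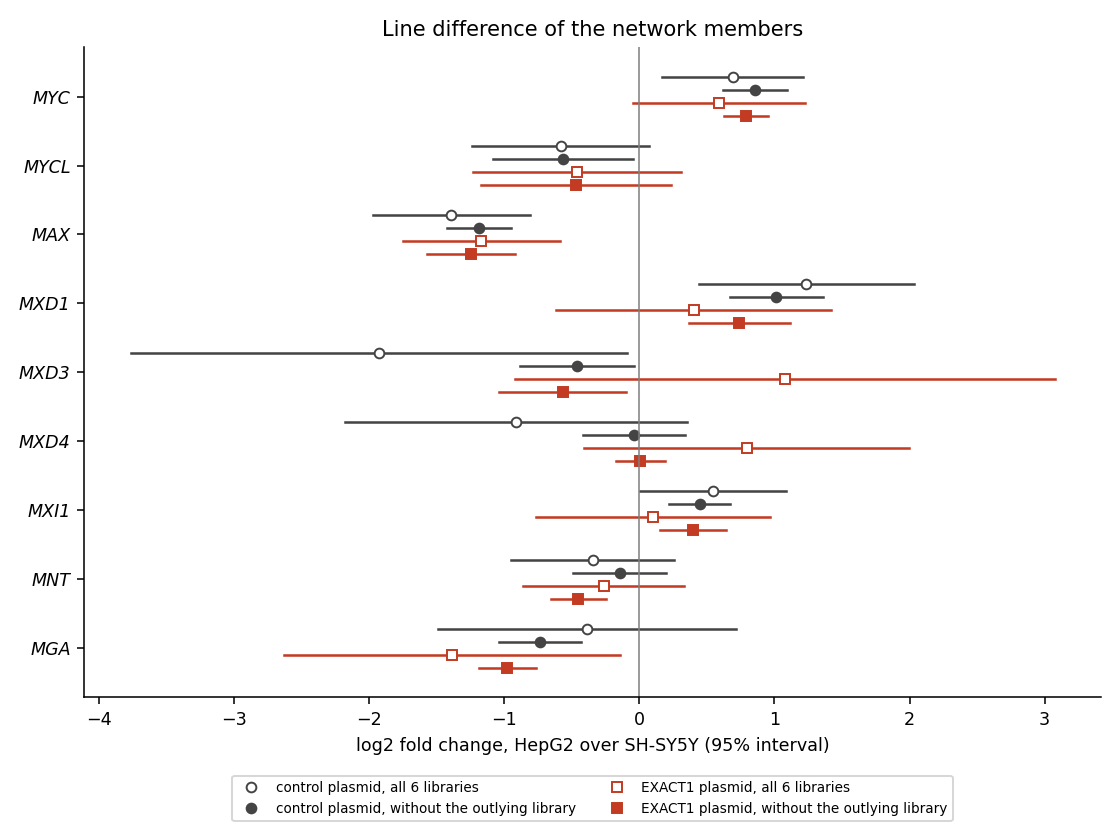
Log2 fold change, HepG2 over SH-SY5Y, of 9 members under each plasmid with 95% intervals, with all 6 libraries (open) and without the outlying library (filled); MYCN, at or near 0 counts in HepG2, is left out. MAX lay between -1.39 and -1.17 in all 4 fits, and MXD3 changed sign between plasmids only with all libraries.

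In HepG2 EXACT1 replicate 1, MXD3 stood 5.82-fold and MXD4 2.50-fold above the mean of the other 2 libraries of its group. In SH-SY5Y control replicate 2 the ratios were 4.63 and 2.57. MXD1 stood at 0.293 and 0.392 of the others, MXI1 at 0.351 and 0.563, and MGA at 0.203 and 0.232. MYC stood at 0.485 in the HepG2 library and at 0.981 in the SH-SY5Y library. MAX (0.915 and 1.05) and MNT (1.11 and 1.04) stayed close to their groups. MXD3 and MXD4 together made up 76.1% and 74.1% of the summed level per length of MXD1, MXD3, MXD4 and MXI1 with MNT and MGA in these 2 libraries, against 27.3% to 30.9% and 29.3% to 39.1% in the others.

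Many genes moved in these libraries, so the members were set beside all genes of at least 1 CPM. In the HepG2 library 14.8% of 12882 genes stood at least 2-fold above and 38.5% at least 2-fold below the others of the group, and in the SH-SY5Y library 13.7% and 37.97% of 14756. Of the members, 2 stood at least 2-fold above and 4 at least 2-fold below among 9 in the HepG2 library, and 2 and 2 among 10 in the SH-SY5Y library. Short transcripts were higher and long ones lower: the median log2 ratio was 0.36 and 0.25 for genes under the lower quartile of exon length (3014 and 2915 bases) and -1.26 and -1.19 for those over the upper quartile (7270 and 7257 bases). Across genes, which are not independent replicates, Spearman's rho of ratio and exon length was -0.423 and -0.419. Over the members it was -0.033 (n = 9) and -0.127 (n = 10). The part of RNA quality or of the library in these values was not tested.

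**Figure D4:**
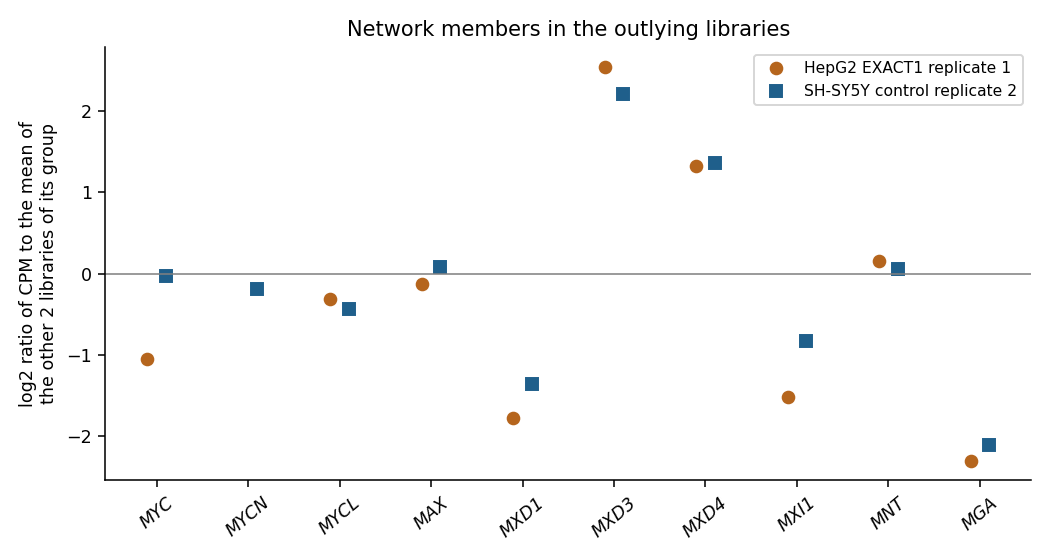
Log2 ratio of each member's CPM in HepG2 EXACT1 replicate 1 (circles) and SH-SY5Y control replicate 2 (squares) to the mean of the other 2 libraries of its group. MXD3 and MXD4 lie above 0 and MXD1, MXI1 and MGA below 0 in both, MYC is low in the HepG2 library, and MYCN has no HepG2 value.

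EXACT1 was compared with control within each line, and no member passed in either. In HepG2 edgeR called 0 of 17139 genes (0.0%), with 164 at an unadjusted p under 0.05, DESeq2 called 10 and limma voom with sample weights 2. MYCN was not tested there for want of counts, and none of the other 9 members reached an unadjusted p under 0.05 with edgeR. In SH-SY5Y edgeR called 0 of 19853 genes (0.0%), with 200 at an unadjusted p under 0.05, DESeq2 called 9 and limma voom 1. None of the 10 members was called by any of these tools.

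MXD3 and MXD4 had the widest fitted differences in HepG2, at 1.59 (SE 0.82, adjusted p = 0.792) and 0.77 (SE 0.50, adjusted p = 0.792), EXACT1 over control. In SH-SY5Y they were -1.42 (SE 0.76, adjusted p = 0.796) and -0.93 (SE 0.54, adjusted p = 0.796). Each rested on the outlying library: without it MXD3 was at -0.06 in HepG2 and 0.06 in SH-SY5Y, and MXD4 at -0.02 and -0.05. Without it the 9 members tested in HepG2 lay between -0.21 for MNT and 0.15 for MYCL. The 10 members in SH-SY5Y lay between -0.05 for MXD4 and 0.23 for MXD1.

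The intervals bound what these libraries can show. Without the outlying library MYC differed by 0.05 in HepG2 (95% interval -0.11 to 0.22) and by 0.13 in SH-SY5Y (-0.07 to 0.33), and MYCN by 0.14 in SH-SY5Y (-0.27 to 0.55). With all libraries the interval for MYC ran from -0.78 to 0.50 in HepG2 and from -0.54 to 0.49 in SH-SY5Y. A missed threshold does not show that the plasmids act alike. The CPM of the groups did not overlap for 0 of 9 members in HepG2, against 9.49% of all genes tested, and for 1 of 10 in SH-SY5Y, against 8.08%. That gene was MNT, at 33.4 to 35.2 CPM with control and 35.7 to 37.5 CPM with EXACT1 (log2 fold change -0.08, adjusted p = 0.881, after TMM scaling). By library totals its fitted difference was 0.09, so its sign depends on the scaling.

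The difference of the EXACT1 effect between lines was tested directly, and edgeR called 0 of 22009 genes (0.0%). There were 1907 at an unadjusted p under 0.05, and DESeq2 called 25 and limma voom 1. MXD3 differed most among the members with HepG2 counts in every library, at 3.11 (HepG2 minus SH-SY5Y, SE 1.26, unadjusted p = 0.032, adjusted p = 0.487). Without both outlying libraries it was -0.11 (adjusted p = 1.0).

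**Figure D5:**
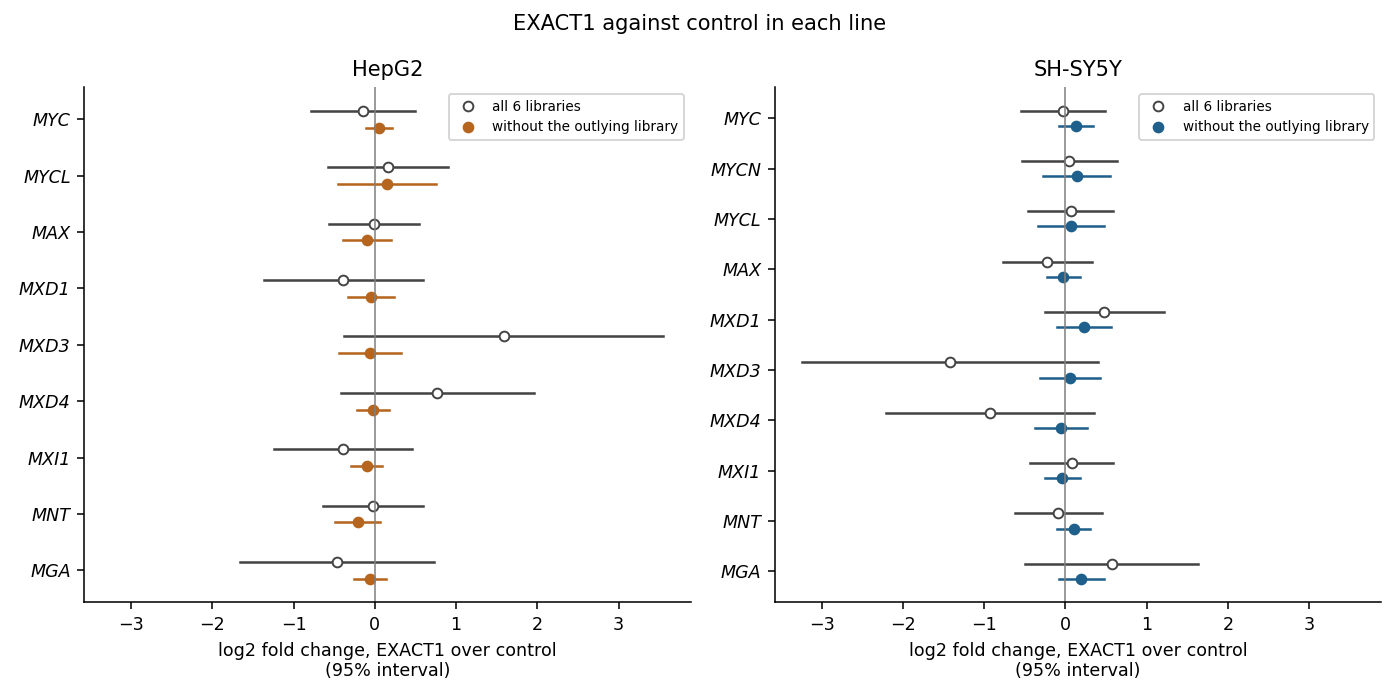
Log2 fold change, EXACT1 over control, of the members in HepG2 (9 genes) and SH-SY5Y (10 genes) with 95% intervals, with all 6 libraries (open) and without the outlying library (filled). No adjusted p passed, and the MXD3 values of 1.59 and -1.42 moved to -0.06 and 0.06 without that library.

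The genes around the network were read from lists of known functions. By library totals every list shifted with the median of all genes, and the medians of the MLX branch and the SIN3 list with control turned to -0.20 and -0.58. Counts by that scaling are given beside those of each list. Over all genes, 23.2% were called higher and 30.0% lower in HepG2 with control in the TMM fit, and 24.3% and 28.1% with EXACT1. By library totals 59.2% of all genes were called with control, 16.3% higher and 42.9% lower. With EXACT1 60.7% were called by that scaling, 15.7% higher and 45.0% lower. In the TMM fit without the outlying library 70.1% of all genes were called with control, 32.4% higher and 37.7% lower. The shares with EXACT1 were then 72.5%, 32.4% and 40.2%. The MLX branch is a parallel network in which MLX pairs with the glucose sensors MLXIP and MLXIPL. With control, 2 of its 5 genes were higher in HepG2 and 0 lower (median log2 fold change 0.51, against -0.27 over all genes). MLXIPL, also named ChREBP, stood at 60.7 ± 1.304 CPM (SD, n = 3) in HepG2 and 0.311 ± 0.195 CPM in SH-SY5Y, a log2 difference of 8.26 (SE 0.55, adjusted p = 9.26e-05). Its target TXNIP stood at 239 ± 6.52 and 138 ± 55.9 CPM (1.47, adjusted p = 0.0039). MLX (0.20, adjusted p = 0.612), MLXIP (-0.31, adjusted p = 0.260) and ARRDC4 (0.51, adjusted p = 0.329) did not pass. With EXACT1 3 of 5 were higher, MLXIPL (9.52), MLX (0.99, adjusted p = 0.026) and TXNIP (0.97, adjusted p = 0.038). MLX passed with control too once the outlying library was left out (0.58, adjusted p = 0.0032). By library totals 1 gene was higher under each plasmid, MLXIPL, and 1 was lower with control and 2 with EXACT1. TXNIP no longer passed (0.79, adjusted p = 0.073, and 0.097, adjusted p = 0.833), nor did MLX with EXACT1 (0.038, adjusted p = 0.899), while MLXIP passed as lower (-0.95, adjusted p = 0.011, and -1.05, adjusted p = 0.0067).

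At the gene loci, 5 of 10 matched neighbours had counts enough to test. In HepG2 1 was higher and 2 lower with control, and 2 and 2 with EXACT1. By library totals 1 was higher and 3 lower with control, and 0 and 3 with EXACT1. MYCNOS, antisense to MYCN with overlapping exons, was listed at 0 in HepG2 with control and at 0.805 ± 0.455 CPM in SH-SY5Y (adjusted p = 0.0066). Where these exons overlap, reads of MYCN and MYCNOS can be told apart only by strand. DDX1, next to MYCN, did not pass, at 132 ± 17.5 CPM in HepG2 against 262 ± 79.0 in SH-SY5Y (-0.32, adjusted p = 0.268). NBAS, farther along, was higher in HepG2 (121 ± 3.84 against 50.9 ± 18.9 CPM, 1.93, adjusted p = 0.0011), and CYRIA lower (0.146 ± 0.126 against 3.13 ± 1.299 CPM, adjusted p = 0.024). PVT1, the long RNA beside MYC, did not pass with control (6.57 ± 0.239 against 6.50 ± 1.79 CPM, 0.60, adjusted p = 0.216) and did with EXACT1 (7.71 ± 2.32 against 5.20 ± 0.415 CPM, 1.54, adjusted p = 0.014). By library totals the PVT1 difference with EXACT1 did not pass (0.57, adjusted p = 0.146), and DDX1 with control did (-0.99, adjusted p = 0.024). Both passed with control without the outlying library, DDX1 at -0.41 (adjusted p = 0.017) and PVT1 at 1.05 (adjusted p = 0.0034). With EXACT1 DDX1 did not pass (-0.52, adjusted p = 0.111). It did without the outlying library (-0.36, adjusted p = 0.0036) and by library totals (-1.41, adjusted p = 0.0076). NBAS was higher in HepG2 with EXACT1 too (1.51, adjusted p = 0.0023). By library totals NBAS passed with control (1.25, adjusted p = 0.016) and not with EXACT1 (0.62, adjusted p = 0.107). The log2 difference of MYCNOS with control was -8.67, and -7.92 without the outlying library (adjusted p = 0.0059).

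Of 56 genes known to be activated by MYC, 8 were higher and 21 lower in HepG2 with control (median -0.43), and 10 and 10 with EXACT1 (median -0.22, against -0.18 over all genes). Among those higher, HK2, a hexokinase, stood at 470 ± 15.3 CPM in HepG2 against 68.8 ± 45.6 in SH-SY5Y (3.51, adjusted p = 0.0024). The cyclin gene CCND2 stood at 2.28 ± 0.297 and 0.0138 ± 0.0239 CPM (adjusted p = 0.000939). Among those lower were NME1, a nucleoside diphosphate kinase (45.9 ± 5.64 against 333 ± 179 CPM, -2.32, adjusted p = 0.0081), and RRP9, a ribosome assembly factor (8.05 ± 0.468 against 65.4 ± 55.6 CPM, -2.53, adjusted p = 0.022). Both rest in part on SH-SY5Y control replicate 2, where NME1 stood at 539.7 CPM against a mean of 229.7 in the other 2 controls, and RRP9 at 129.6 against 33.4. Without it the differences were -1.52 (adjusted p = 1.67e-05) and -1.25 (adjusted p = 0.000148). With EXACT1, among genes with a mean of at least 1 CPM over the fitted libraries and no overlap between the lines, the widest differences were those of LDHA (2.68, adjusted p = 0.000165) and HSPD1 (1.98, adjusted p = 0.000979) above, and MIR17HG (-2.42, adjusted p = 0.0060) and RRS1 (-2.05, adjusted p = 0.0018) below. Leaving out the outlying library, 18 were higher and 29 lower with control, and 19 and 29 with EXACT1. By library totals 5 were higher and 33 lower with control, and 5 and 28 with EXACT1.

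Of 16 genes known to be repressed by MYC, 10 were higher and 4 lower in HepG2 under both plasmids (median 1.05 and 1.82). The list holds CEBPA, which is also a gene of hepatocytes. GADD45B, a stress response gene, stood at 24.2 ± 2.93 CPM in HepG2 against 0.507 ± 0.410 in SH-SY5Y (6.25, adjusted p = 0.000517). TGM2, a transglutaminase, stood at 64.9 ± 10.2 and 1.66 ± 1.36 CPM (5.98, adjusted p = 0.000443). SFRP1, a WNT antagonist, stood at 0.0137 ± 0.0238 and 39.7 ± 25.7 CPM (adjusted p = 0.000348), and the cell cycle inhibitor CDKN1C at 0.0183 ± 0.0317 and 26.4 ± 9.60 CPM (adjusted p = 0.000516). With EXACT1 CEBPA, a hepatocyte transcription factor, stood at 46.7 ± 7.38 and 0.711 ± 0.172 CPM (6.98, adjusted p = 7.65e-05). By library totals 6 of the 16 were higher and 5 lower with control, and 8 and 4 with EXACT1.

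Among 16 MYC cofactors, 1 was higher and 5 were lower in HepG2 with control (median -0.64), and 0 and 4 with EXACT1 (median -0.57). RUVBL1, an ATPase of chromatin complexes, stood at 33.0 ± 0.743 CPM in HepG2 against 232 ± 43.4 in SH-SY5Y (-2.22, adjusted p = 0.0012). ZBTB17, the MIZ1 protein through which MYC represses genes, stood at 8.33 ± 1.57 and 46.8 ± 18.2 CPM (-1.92, adjusted p = 0.0098), and the difference was -1.33 (adjusted p = 0.000629) without the outlying library. HCFC1 was lower with EXACT1 (-1.19, adjusted p = 0.014). When the outlying library was left out, 2 were higher and 11 lower under each plasmid. By library totals 0 were higher and 12 lower under each.

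Among 16 SIN3 corepressor genes, 2 were higher and 2 lower under each plasmid (median 0.11 and -0.43). HDAC1, a histone deacetylase, was higher in HepG2 in both (0.93, adjusted p = 0.0059, and 1.17, adjusted p = 0.0036), and SAP30 lower in both (-1.08, adjusted p = 0.011, and -0.77, adjusted p = 0.034). BRMS1 was lower with control (-2.64, adjusted p = 0.013, and -1.55, adjusted p = 0.000134, without the outlying library). SAP18 was higher (0.66, adjusted p = 0.038) and HDAC2 lower (-1.22, adjusted p = 0.041) with EXACT1. With the outlying library left out, 4 were higher and 6 lower under each plasmid. By library totals 0 were higher, and 4 were lower with control and 10 with EXACT1. HDAC1 then did not pass (0.29, adjusted p = 0.294, and 0.25, adjusted p = 0.331), and SAP18 with EXACT1 turned to -0.27 (adjusted p = 0.299).

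Among 12 partners of MGA in PRC1.6, 1 was higher and 4 were lower with control (median -0.48), and 0 and 3 with EXACT1 (median -0.70). CBX3, a heterochromatin protein, stood at 140 ± 18.0 CPM in HepG2 against 545 ± 176 in SH-SY5Y with control (-1.29, adjusted p = 0.0035), and was lower with EXACT1 too (-1.69, adjusted p = 0.0031). The methyltransferase genes EHMT2 (-1.16, adjusted p = 0.011, control) and EHMT1 (-1.02, adjusted p = 0.014, EXACT1) were lower, and RYBP was higher with control (1.34, adjusted p = 0.022). Leaving out the outlying library, 1 was higher and 7 were lower under each plasmid. By library totals 0 were higher, and 8 were lower with control and 9 with EXACT1, and RYBP did not pass (0.62, adjusted p = 0.274).

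Among 21 genes of MYC protein turnover, 3 were higher and 4 lower with control (median -0.20), and 4 and 4 with EXACT1 (median -0.51). AURKA, a kinase that stabilises MYCN protein, stood at 162 ± 6.94 CPM in HepG2 against 51.6 ± 13.9 in SH-SY5Y (2.32, adjusted p = 0.000241). PPP2R5A, a phosphatase subunit, was higher in HepG2 under both plasmids (2.64, adjusted p = 0.000373, and 2.46, adjusted p = 0.000417), and the ubiquitin ligase gene FBXO32 lower in both (-2.38, adjusted p = 0.0020, and -1.996, adjusted p = 0.0024). STUB1 was lower with control (-2.30, adjusted p = 0.016, and -1.30, adjusted p = 5.47e-05, without the outlying library). AXIN1 was higher (2.92, adjusted p = 0.0011) and FBXW7, the ligase that marks MYC for destruction, lower (-1.495, adjusted p = 0.040) with EXACT1. Omitting the outlying library, 6 were higher and 12 lower with control, and 7 and 13 with EXACT1. By library totals 3 were higher and 8 lower with control, and 3 and 12 with EXACT1.

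No gene of these lists was called for EXACT1 against control in either line. The smallest p-values in HepG2 were those of TERT, at 3.86 ± 0.725 CPM with EXACT1 against 2.55 ± 0.324 with control (0.73), BOP1 (0.97) and MRTO4 (0.58), each with an adjusted p of 0.792. In SH-SY5Y, MIR17HG (0.74) and RUVBL2 (-1.13) were among those with the smallest p-values, each with an adjusted p of 0.796. BOP1 in HepG2 moved to 0.19 and RUVBL2 in SH-SY5Y to -0.071 without the outlying library.

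Finally, the genes most like MYC and MYCN in their pattern over the 12 libraries were found by Pearson's r of log2 CPM, as a description. For MYC they were one of the overlapping gene models of MATR3 (ENSG00000280987, r = 0.969), NFATC3 (0.962) and APIP (0.941). All 3 shared the low value of HepG2 EXACT1 replicate 1, where NFATC3 stood at 21.0 CPM against 82.5 to 117 CPM in the other HepG2 libraries. Over the 10 libraries without the outlying ones r was 0.629, 0.624 and 0.269. For MYCN they were ENSG00000242593 (0.9995), TMSB15C (0.9994) and ENSG00000232821 (0.9991), all at or near 0 in HepG2, and r stayed at 0.9992 or above over those 10 libraries.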

How the data were processed

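RNA was measured in 12 libraries of 2 lines, with groups and replicate numbers from the sample titles. Raw gene counts, whole numbers under Ensembl IDs, were deposited by the authors without normalization. The tools named, per the submitters' processing notes, are HISAT2, cutadapt, limma, edgeR and StringTie, with the build GRCh38 (hg38). Their versions and the strand setting were not given. Of 60612 rows 60401 matched a symbol. Replicate pairs differed by far more than sampling noise, so each library counted once.

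Counts were tested with edgeR 4.0.16 in R 4.3.3 (filterByExpr, TMM, robust quasi-likelihood F test, two-sided, Benjamini-Hochberg over all genes, call at 0.05), with only the groups compared in each fit and all 12 libraries for the difference between lines. The fits were tested on simulated data with a fixed spread for all genes and no outlying library. That test cannot show how they perform on libraries like these. CPM are relative to library totals, and lengths are exon unions of GENCODE 29. The exact interval of MYCN and the floors (3 counts) cover counting error only. Intervals of log2 fold changes come from the quasi-likelihood fit and include the spread between libraries.

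Alternatives were DESeq2 1.42.0, limma 3.58.1 voom with sample weights, RLE or library-total scaling, fitting without a filter or with a minimum mean CPM of 5, a replicate block, all libraries in 1 fit and each library left out. Libraries held 66056962 to 77100150 counts. The fits of the line difference without both outlying libraries were chosen after seeing the data. The members and lists were chosen with earlier results of these data known. All members are named. Of other lists, the 2 called genes per direction with the largest fold change, a mean of at least 1 CPM and no overlap between groups are named (all tested genes for the MLX branch and the loci), and for EXACT1 the 3 with the smallest p, of which 1 is not reported here. For likeness the 3 genes of highest r are named. CCAT1 did not match by symbol. HEK293A, mNeonGreen and EXACT1 RNA were not analysed here.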

Additional observations from a re-analysis of the deposited data

How the results depend on the processing

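Of the members called between lines, MYCN and MAX with both plasmids passed in every setting tried; MYC and MXD1 did not, as given above. With the control plasmid the number of members called was 7 with DESeq2, where 11942 of 19775 genes were called, and 7 with limma voom (14674 genes). It was 6 by library totals (11708 genes) and 2 to 6 with 1 library left out (8631 to 14714 genes). With the EXACT1 plasmid it was 4 with DESeq2, where 12139 of 20105 genes were called, and 8 with limma voom (15525 genes). It was 5 by library totals (12204 genes) and 4 with all 12 libraries in 1 fit (11853 genes). Without both outlying libraries it was 8 (15578 genes), and 2 to 8 with 1 library left out (8386 to 15515 genes). Requiring a mean CPM of at least 5 left 6660 and 6320 genes called.

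For EXACT1 against control, genes called were 10 with DESeq2, 2 with limma voom and 0 to 2 with 1 library left out in HepG2, and 9, 1 and 0 to 1 in SH-SY5Y. For the difference of that effect between lines they were 25 with DESeq2, 1 with limma voom and 2 without both outlying libraries. Without exon lengths the paralog shares were 96.2% MYC and 3.75% MYCL in HepG2 and 18.6% MYCN and 6.37% MYCL in SH-SY5Y, and with the longest transcript 77.7% MYC, 17.6% MYCN and 4.80% MYCL in SH-SY5Y.

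Signs turned for the following log2 values. None passed its test except MXD3 between lines with EXACT1, lower in HepG2 at -0.58 with limma voom (adjusted p = 0.0475) and at -0.57 without both outlying libraries (adjusted p = 0.0225). The cause was not tested. Between lines by library totals, MXI1 was -0.13 with control, and MYC was -0.29, MXD1 -0.46, MXD4 -0.21 and MXI1 -0.76 with EXACT1. MXD4 with EXACT1 was -0.00 without both outlying libraries. For EXACT1 in HepG2, limma voom gave MYC 0.060, MXD3 -0.067 and MXD4 -0.0079, a mean CPM of at least 5 gave MAX 0.031 and MNT 0.028, and all 12 libraries in 1 fit gave MAX 0.060 and MNT 0.060. In SH-SY5Y, limma voom gave MYC 0.19, MXD3 0.0025 and MNT 0.097, library totals gave MYC 0.15 and MNT 0.093, and no filter gave MYC 0.011. For the difference of the effect between lines, limma voom gave MAX -0.092, MXD3 -0.037 and MNT -0.29, library totals gave MYCL -0.14, MAX -0.075 and MNT -0.23, and the fit without both outlying libraries gave MAX -0.069, MXD3 -0.11 and MNT -0.31.

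With 1 library left out at a time, MGA ranged from -0.73 to 0.027 between lines with control, and MXD3 from -0.57 to 1.498 and MXI1 from -0.16 to 0.40 with EXACT1. In HepG2 the EXACT1 effect ranged from -0.30 to 0.053 for MYC, -0.068 to 0.36 for MYCL, -0.093 to 0.11 for MAX, -0.059 to 2.02 for MXD3, -0.020 to 1.05 for MXD4 and -0.21 to 0.095 for MNT. In SH-SY5Y it ranged from -0.12 to 0.13 for MYC, -0.043 to 0.22 for MYCN, -0.024 to 0.14 for MYCL, -1.83 to 0.056 for MXD3, -0.038 to 0.20 for MXI1 and -0.17 to 0.10 for MNT. Its difference between lines ranged from -0.28 to 0.061 for MYC, -0.047 to 0.36 for MYCL and -0.14 to 0.24 for MNT.

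Whether replicate numbers pair the libraries could not be told: deviations of same-numbered libraries correlated at -0.149 to 0.41. Between EXACT1 and control they correlated at 0.41, 0.2 and 0.002 in SH-SY5Y and at 0.037, -0.081 and 0.135 in HepG2. Both of these comparisons include an outlying library. With the replicate number as a block, 8725 genes and 3 members were called between lines with control, 7809 genes and 2 members with EXACT1, and 0 genes for EXACT1 against control in either line. The line call of MYC with control was 0.70 under the block (adjusted p = 0.0925).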
